A study of Mus musculus with 3 samples.

Results

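Atypical chemokine receptors bind chemokines, the secreted proteins that guide leukocytes, without switching on the G proteins through which ordinary chemokine receptors signal. They take the ligand into the cell and degrade it, carry it across the cell or hold it, and so set how much chemokine a tissue displays. Ackr1, Ackr2, Ackr3, Ackr4 and the endothelial receptor Gpr182 were found by their symbols in the gene tables of the count matrices, which gave 5 genes of 32285 (ENSMUSG00000037872, ENSMUSG00000044534, ENSMUSG00000044337, ENSMUSG00000079355 and ENSMUSG00000058396, in that order). All 5 were described over the cell classes of injured mouse muscle, and over the subclusters of endothelial cells and fibroblasts.

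The cells came from wildtype C57BL/6 mice with a volumetric muscle loss in the quadriceps, a wound that muscle cannot close by regenerating, filled with particulate polycaprolactone (PCL), a degradable polyester that stays in the tissue as a foreign body. Muscle and implant were both taken at week 6 and dissociated, dead cells were removed, and magnetically separated CD45+ and CD45- fractions were recombined in equal numbers, so that the share of immune against stromal cells follows from the remix. There was 1 group of 3 libraries made with 10x Genomics 3′ chemistry and no untreated group, so every comparison is between classes of cells within the same libraries. The labels do not say whether the libraries came from separate animals, so the p-values measure only how far these samples spread, and that spread may be technical.

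Replicates 1, 2 and 3 held 6068, 8643 and 4996 barcodes, and between 104482261 and 192348779 UMIs (unique molecular identifiers, 1 per captured molecule). After filters and removal of likely doublets 17963 cells remained, with 10207 fibroblast-like, 3417 macrophage-like, 832 blood endothelial-like and 233 lymphatic endothelial-like cells among them, and 268 cells in clusters without a name. The libraries shared 23 to 26 barcode sequences each with the others. All classes are called "-like" because they were named here from marker genes. Of the defining markers, 6 of 6 for lymphatic endothelial cells and 8 of 9 for blood endothelial cells (all but Tie1) were highest in the class that carries the name, as were 7 of 7 for tenocytes, the cells of tendon, and 8 of 8 for mural cells, the pericytes and smooth muscle around vessels. For fibroblasts it was 5 of 9, all but Col1a1, Col1a2, Dcn and Fbln1. Clusters were built without any of the 5 receptors or their listed ligands, but with Cadm3, a gene that overlaps Ackr1. Levels are CPM, the UMI counts of a gene per 1000000 UMIs, with TMM-scaled library sizes, and a gene was called between classes when edgeR's quasi-likelihood test gave a p under 0.05 after Benjamini-Hochberg adjustment and the log2 difference was 1 or more in size.

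Promoter sequence is shown for Ackr2 and Ackr3, the receptors of lymphatic endothelial-like and of Pi16-like fibroblast cells below, so that short motifs of factor families active in endothelium and stroma can be read in them. Windows were matched for 4 of the 5 genes. Those of Ackr2 and Ackr3 lie outside annotated exons, and each is given as the 250 bases before the gene's start in RefSeq (build GRCm38.p6), on the plus strand. Capitals mark matches on either strand to an ETS core (CAGGAA, found in 25.7% of 32851 windows of the same length) or a SOX core (ACAAAG, 16.5%).
Ackr2 promoter, chr9:121898105-121898354: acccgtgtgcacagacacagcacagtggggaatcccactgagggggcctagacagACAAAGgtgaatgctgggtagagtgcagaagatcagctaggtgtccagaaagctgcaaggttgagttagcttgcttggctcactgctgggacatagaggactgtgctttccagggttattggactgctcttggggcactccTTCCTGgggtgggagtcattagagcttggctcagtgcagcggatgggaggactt
Ackr3 promoter, chr1:90203730-90203979: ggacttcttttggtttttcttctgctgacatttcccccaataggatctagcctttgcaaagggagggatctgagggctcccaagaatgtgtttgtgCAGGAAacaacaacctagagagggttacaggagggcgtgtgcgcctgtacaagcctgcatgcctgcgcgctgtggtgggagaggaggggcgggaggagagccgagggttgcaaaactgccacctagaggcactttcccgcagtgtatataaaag
The Ackr2 window held 1 SOX match on the plus strand and 1 ETS match on the minus strand, and the Ackr3 window held 1 ETS match on the plus strand. Neither window held the GATA letters AGATAA (9.99% of windows) or the nuclear receptor half-site AGGTCA (14%). A match describes these letters and no binding was measured.

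Each receptor had its own pattern over the 11 classes with enough cells, and all of the 5 were called higher in stromal-like than in immune-like cells. Ackr1 was highest in blood endothelial-like cells, Ackr2 and Gpr182 in lymphatic endothelial-like cells, Ackr3 in fibroblast-like and lymphatic endothelial-like cells with overlapping values, and Ackr4 in tenocyte-like cells. Against immune-like cells the log2 difference was 4.66 ± 0.16 (SE) for Ackr1, 7.21 ± 0.37 for Ackr2, 5.01 ± 0.32 for Ackr3 and 2.80 ± 0.35 for Ackr4, higher in 3 of 3 libraries for each (edgeR adjusted p between 4.36e-06 and 6.37e-04). Gpr182 had 714 UMIs in stromal-like and 2 in immune-like cells, a ratio of 84.6 per UMI sequenced (95% counting interval 23.3 to 700.0). The background is wide: 29.8% of all genes tested were called higher in stromal-like cells and 49.3% in either direction.

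**Figure D1:**
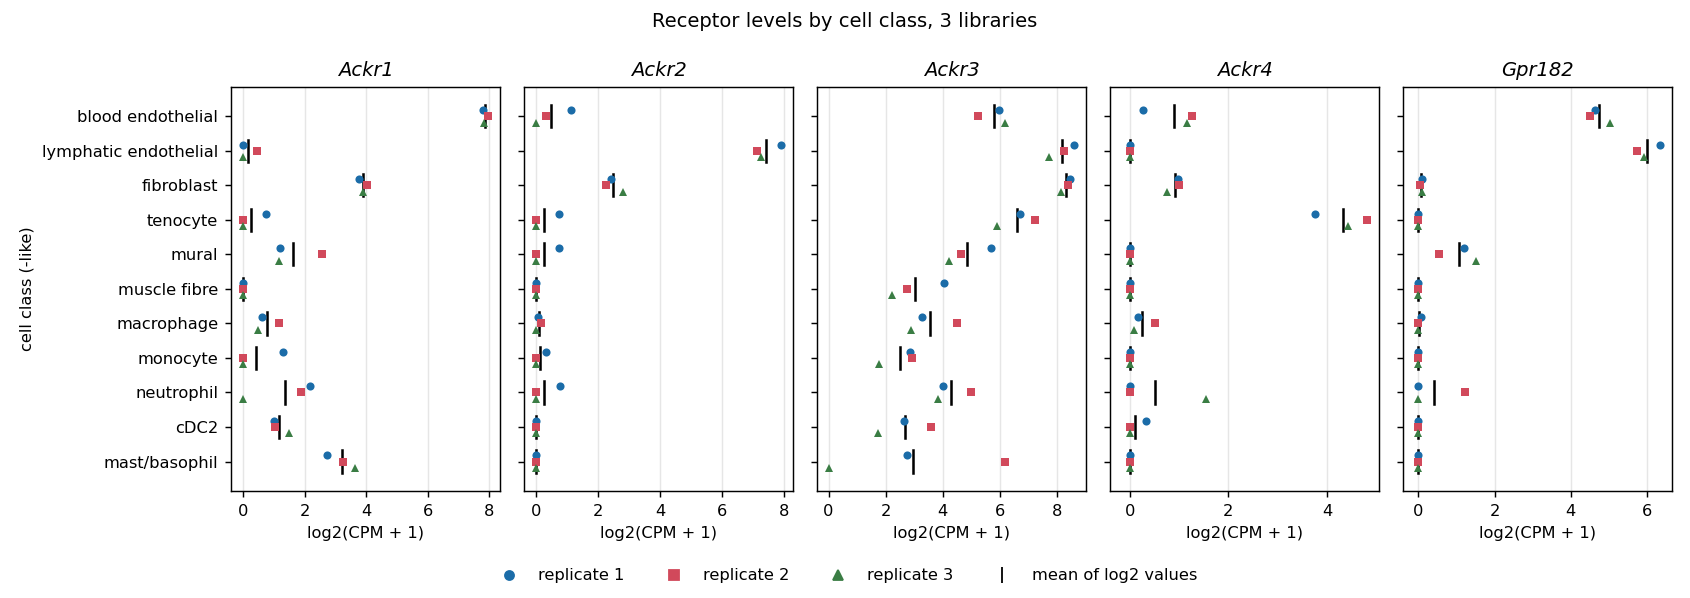
Level of each receptor, as log2(CPM + 1), in 11 cell classes; the 3 symbols in a row are the 3 libraries and the vertical bar is the mean of their log2 values. The blood endothelial-like row lies farthest right for Ackr1, the lymphatic endothelial-like row for Ackr2 and Gpr182, and the tenocyte-like row for Ackr4, while Ackr3 is high in both the fibroblast-like and the lymphatic endothelial-like rows.

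The listed receptors that signal were higher in immune-like cells. Of 18 G-protein-coupled chemokine receptors listed, 17 were tested and 17 were called lower in stromal-like cells, against 19.5% of all genes. Their median log2 difference was -6.77, beside 0.12 over all genes tested. A gene could enter the test through counts on a single side, here the immune-like side, and for the atypical receptors above the stromal-like side. Such counts describe where these genes were detected and do not test the lists. Cxcr2, the neutrophil receptor for CXC chemokines, stood at 1033 ± 266 CPM (SD, n = 3) in neutrophil-like cells, Ccr2, which draws monocytes out of the marrow, at 754 ± 35.7 CPM in monocyte-like cells, and Ccr1 at 1570 ± 327 CPM in neutrophil-like cells.

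Ackr1, known as the Duffy antigen, binds inflammatory CC and CXC chemokines on venules and on red blood cells. In blood endothelial-like cells it stood at 224, 248 and 228 CPM in replicates 1, 2 and 3 (233 ± 12.7, SD, n = 3), and in fibroblast-like cells at 12.6, 15.1 and 13.97 CPM. The libraries of the 2 classes did not overlap, and the log2 difference was 3.98 ± 0.09 (SE, adjusted p = 2.30e-09 in edgeR). Lymphatic endothelial-like cells held 1 Ackr1 UMI in all, against 2775 in blood endothelial-like cells, which is a ratio of 1370 per UMI sequenced (95% counting interval 245 to 54000). Muscle fibre-like cells held none, which allows up to 2.90 CPM. The 6 markers of red blood cells summed to between 0.00 and 11.9 CPM in blood endothelial-like cells.

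Among the named blood endothelial-like cells Ackr1 was highest in venular-like cells, which were named from markers such as Selp, Sele, Vwf, Nr2f2, Ephb4, Lrg1, Vcam1 and Il1r1. In subcluster E2 it reached 693, 705 and 540 CPM and in E7, where Sele, Glycam1 and Cxcl10 are among the leading genes, 653, 664 and 440.5 CPM. A further venular-like subcluster, E4, had 50.05, 39.96 and 0 CPM, with no overlap with E2 or E7 although its Selp level was 1035 ± 159 CPM. Tip-like cells (E3), the cells that lead vessel sprouts, had 8.25 ± 4.79 CPM and arterial-like cells (E9) 2.43 ± 4.21 CPM. Venular-like cells differed from all other named blood endothelial-like cells by 6.19 ± 0.33 on the log2 scale (adjusted p = 1.82e-06 in edgeR, higher in 3 of 3 libraries). In that comparison 4.29% of all genes were called higher, 3.9% lower and 8.19% in either direction. Arterial-like cells held 2 Ackr1 UMIs, a ratio of 86.3 below the other named blood endothelial-like cells (interval 23.9 to 713.0), where 5.6% of genes were called lower and 11.2% either way.

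Not every blood endothelial-like cell could be placed along the vessel tree. Of the 832 cells, 303 fell in subclusters that stayed unnamed, mainly E0 and E6, whose median depths were 1082 and 2013 UMIs per cell. Ackr1 was high there as well, at 480 ± 211 CPM in E0 and 473 ± 307 CPM in E6, with replicate 1 the highest in both. A smaller unnamed subcluster, E11, with 30 cells and a median of 2982 UMIs, had 98 Ackr1 UMIs, or 879 raw CPM, above E2 with 637 and E7 with 609 raw CPM. All of E0, E6 and E11 scored best for the venular list, and they were left out of the venular comparison. Their low depth was measured beside the level, and its part was not tested.

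**Figure D2:**
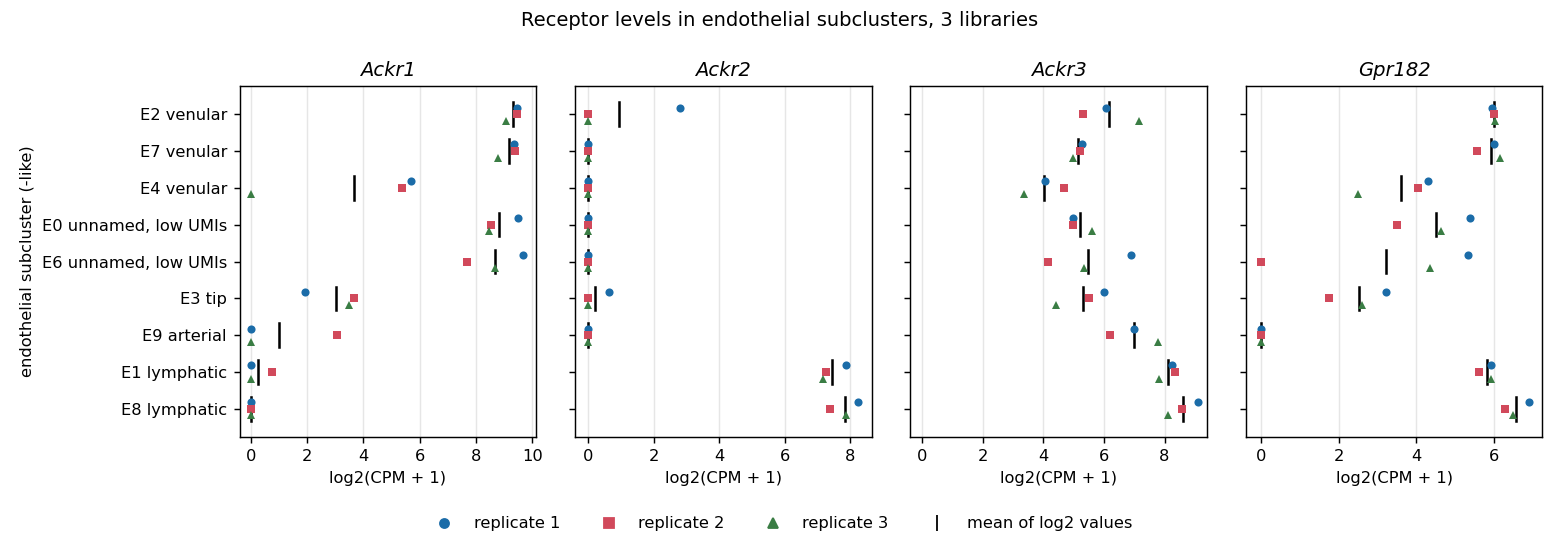
Levels of 4 receptors, as log2(CPM + 1), in 9 endothelial subclusters; the 3 symbols in a row are the 3 libraries and the vertical bar is the mean of their log2 values. Ackr1 is high in E2 and E7 and near 0 in the lymphatic rows E1 and E8, Ackr2 shows the reverse, and Gpr182 is high in E2, E7, E1 and E8 and at 0 in the arterial row E9.

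Counting cells gave the same order. With every cell reduced to 3000 UMIs, 31.9% ± 4.73 of blood endothelial-like cells held an Ackr1 UMI (41.3% without thinning; 289 shallower cells left out), against 4.83% ± 0.521 of fibroblast-like and 0.295% of macrophage-like cells. The macrophage-like share is given as a comparison, and the part of free RNA in it was not tested. The median depths were 8283, 26083 and 11785 UMIs. In E2 the thinned share was 65.7% ± 10.3 and in E7 it was 70.4% ± 1.11, while E4 had 4 of 71 cells (5.63%, exact 95% interval 1.56% to 13.8%). All intervals cover counting error only.

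Fibroblast-like cells held 4336 Ackr1 UMIs, but a neighbour gene bears on them. In GENCODE M21 the Ackr1 gene shares 493 bases with Cadm3, a cell adhesion gene on the same strand, and the annotation behind the counts is not given in the sources used here. Over 17 fibroblast subclusters with at least 10 Cadm3 UMIs, there were between 17.9 (F6) and 31.8 (F11) Ackr1 UMIs per 100 Cadm3 UMIs, with a median of 25.5. In blood endothelial-like cells there were 743, 989 and 854 per 100 in the 3 libraries, and in mural-like cells 21.1. Schwann-like cells, the glia of nerves, held 7 Ackr1 and 72 Cadm3 UMIs. Which of the 2 genes the shared bases were counted for cannot be told from these counts, so the fibroblast levels of Ackr1 are uncertain.

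**Figure D3:**
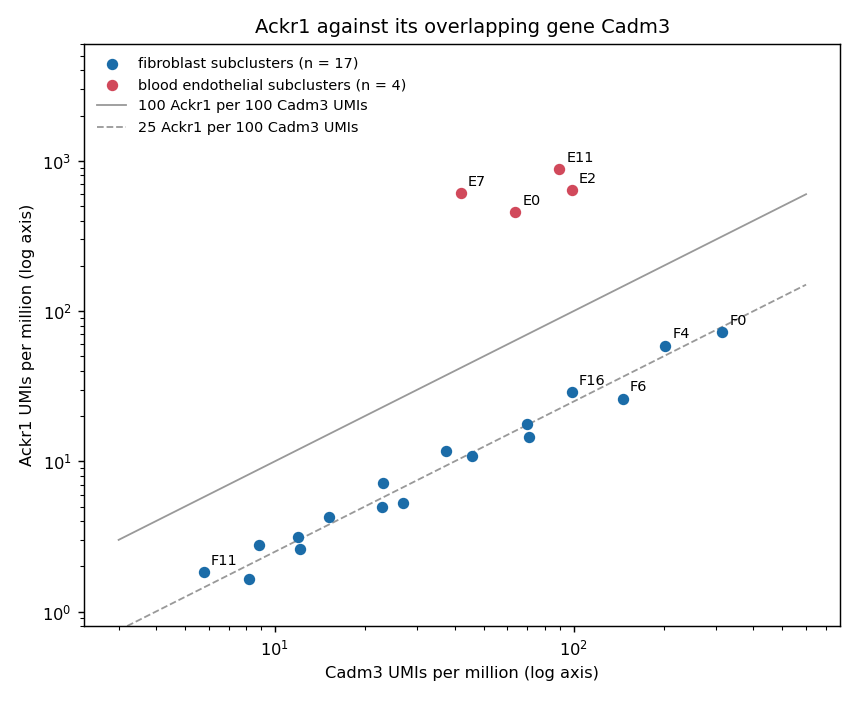
Ackr1 against Cadm3 in subclusters with at least 10 Cadm3 UMIs, both in raw CPM on log axes; each point is 1 subcluster over all 3 libraries, and the lines mark 100 and 25 Ackr1 UMIs per 100 Cadm3 UMIs. The fibroblast points follow the lower line, between 17.9 and 31.8 per 100, and the blood endothelial points lie above the upper one.

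Ackr1 and Cadm3 were also counted in the same single cells. Pi16-like fibroblasts, the Pi16+ Dpp4+ cells of the adventitia around vessels (subclusters F0 and F4, 1742 cells), had an Ackr1 UMI in 1148 cells, and 1096 of those also had a Cadm3 UMI, against 442 of the 594 cells without Ackr1. In the venular-like subclusters E2 and E7 it was 114 of 196 cells with Ackr1, against 2 of the 16 without. The part of the shared bases and of depth in these counts was not tested. Endothelial RNA in the same droplets was measured too. At least 1 UMI of 5 endothelial markers was seen in 70 of the 1148 Pi16-like cells with Ackr1 and in 57 of the 594 without, or 6.098% and 9.60%. Over all fibroblast-like cells the 9 blood endothelial markers summed to 18.7 to 26.4 CPM, and in blood endothelial-like cells to 6723 to 7417 CPM.

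Ackr2, a scavenger of inflammatory CC chemokines known from lymphatic endothelium, was at 236, 139 and 151 CPM in lymphatic endothelial-like cells (175 ± 53.1, SD, n = 3). Replicate 1 was the highest, and each library was far above every other class. Fibroblast-like cells followed with 4.24, 3.70 and 5.98 CPM, and blood endothelial-like cells held 7 UMIs, 6 of them in replicate 1. Lymphatic endothelial-like cells differed from blood endothelial-like cells by 8.24 ± 0.26 on the log2 scale (SE, adjusted p = 3.33e-08 in edgeR) and from fibroblast-like cells by 5.21 ± 0.17 (adjusted p = 1.39e-14). Of all genes, 10.1% were called higher in lymphatic than in blood endothelial-like cells (21.3% in either direction), and 11.9% higher than in fibroblast-like cells (33.6% in either direction). With 3000 UMIs per cell, 45.2% ± 10.6 of lymphatic endothelial-like cells held an Ackr2 UMI (79.6% unthinned), against 0.163% ± 0.282 of blood endothelial-like cells.

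The lower Ackr2 level of blood endothelial-like than fibroblast-like cells (-3.03 ± 0.54, adjusted p = 1.31e-03 in edgeR) rested on these few UMIs. It fell short of the threshold without doublet removal (log2 difference -1.13, adjusted p = 0.077) and with at most 10% mitochondrial UMIs per cell (-1.18, adjusted p = 0.0957).

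Fibroblasts varied among themselves in Ackr2. It was at 46.9, 34.8 and 42.7 CPM in F0, the Pi16-like subcluster with the most Pi16, at 13.1, 14.05 and 18.2 CPM in F4, the other Pi16-like one, and at 13.1 ± 2.02 CPM in the Smoc2-like F6. No library of F0 overlapped another subcluster. The interferon-like F16 had 10.8 ± 7.24 CPM, and F14 and F15 had no UMI. Pi16-like fibroblasts were compared with all others after these levels had been seen, and differed by 4.79 ± 0.18 on the log2 scale (adjusted p = 7.17e-07 in edgeR, 29.1 ± 4.49 against 1.13 ± 0.556 CPM). In that comparison 6.47% of genes were called higher, 12.7% lower and 19.1% in either direction.

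Ackr3, also named Cxcr7, takes up Cxcl12 and adrenomedullin (the Adm product). It was at 349, 335 and 281 CPM in fibroblast-like cells (322 ± 35.9, SD, n = 3) and at 386, 306 and 208 CPM in lymphatic endothelial-like cells (300 ± 89.2). The 2 classes overlapped, and their log2 difference was -0.16 ± 0.10 (SE, adjusted p = 0.192 in edgeR, in the same direction in 2 of 3 libraries; 0.08 without TMM scaling). A difference of that size was not called, which does not show that the levels are the same. Tenocyte-like cells had 102, 148 and 58.3 CPM, blood endothelial-like cells 61.8, 37.1 and 71.4 CPM, and mural-like cells 50.9, 24.0 and 17.7 CPM. Of these 3 classes each overlapped the next in the order, and the 6 classes below them lay between 5.04 and 25.8 CPM in the mean.

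Lymphatic endothelial-like cells exceeded blood endothelial-like cells in Ackr3 by 2.47 ± 0.24 on the log2 scale (adjusted p = 3.32e-05 in edgeR). Fibroblast-like cells exceeded mural-like cells by 3.54 ± 0.19 (adjusted p = 5.09e-10), where 14.2% of genes were called higher and 25.2% either way. Blood endothelial-like cells were below fibroblast-like cells, with a log2 difference of -2.64 ± 0.20 (adjusted p = 4.95e-06), where 22.2% of genes were called lower, 12.9% higher and 35.1% either way. The thinned share of cells with an Ackr3 UMI was 49.8% ± 4.72 in fibroblast-like, 53.0% ± 9.34 in lymphatic endothelial-like, 19.8% ± 5.02 in tenocyte-like and 15.3% ± 2.84 in blood endothelial-like cells, against 3.67% ± 2.10 in macrophage-like cells, where the part of free RNA was not tested either. The 9 fibroblast markers summed to 270 to 423 CPM in blood endothelial-like cells, beside 53970 to 59900 CPM in fibroblast-like cells.

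Along the vessel tree Ackr3 did not follow Ackr1. Arterial-like cells had 127, 72.9 and 222 CPM, and the capillary-like subcluster E5, with only 3 cells in replicate 2, had 177 raw CPM (without TMM scaling). The venular-like subclusters ranged from 82.3 ± 53.9 CPM in E2 to 34.8 ± 3.95 CPM in E7 and 16.4 ± 7.56 CPM in E4. The other named blood endothelial-like cells include E5, which was not compared with arterial-like cells alone. Against all these others together, arterial-like cells were called higher, by 1.13 ± 0.24 on the log2 scale (adjusted p = 2.61e-03 in edgeR, 5.62% of genes called higher). This call did not hold with at least 1000 genes per cell (0.25, adjusted p = 0.485), without doublet removal (0.92, under the size threshold), without replicate 3 (0.95) or without the replicate block (1.08, adjusted p = 0.0699). Venular-like cells differed by -0.62 ± 0.15 (adjusted p = 0.0176), which is under the size threshold, and by -1.29 with at most 10% mitochondrial UMIs.

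Among fibroblasts Ackr3 was detected everywhere and was graded. F0 had 912, 948 and 869 CPM and F4 had 811, 855 and 807 CPM, with no overlap between them or with any other subcluster. F16 followed with 792, 383 and 578 CPM, the unnamed F8 with 518 ± 128 CPM and F6 with 458 ± 37.7 CPM. The lowest were the unnamed F3, whose best list was that of Spp1 and Tnc, with 134 ± 17.3 CPM, and F14, with 128 ± 36.4 CPM and a median depth far under that of its libraries. In 1 fit over 18 subclusters, each against the mean of the others, Ackr3 was called higher in F0 (1.75 ± 0.12, adjusted p = 2.41e-16 in edgeR), F4 (1.60 ± 0.13) and F16 (1.06 ± 0.14) and lower in F3 (-1.18 ± 0.16) and F14 (-1.30 ± 0.26). Over all 18 subclusters 9.84% of tests were called in either direction, 6.1% higher and 3.74% lower. The F16 call was lost without replicate 1 (0.92), without replicate 3 (0.92) and without F14 and F17 (0.97). Pi16-like fibroblasts as a whole stood at 879 ± 33.1 CPM against 246 ± 43.8 CPM in the others, a log2 difference of 1.85 ± 0.09 (adjusted p = 2.66e-06).

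**Figure D4:**
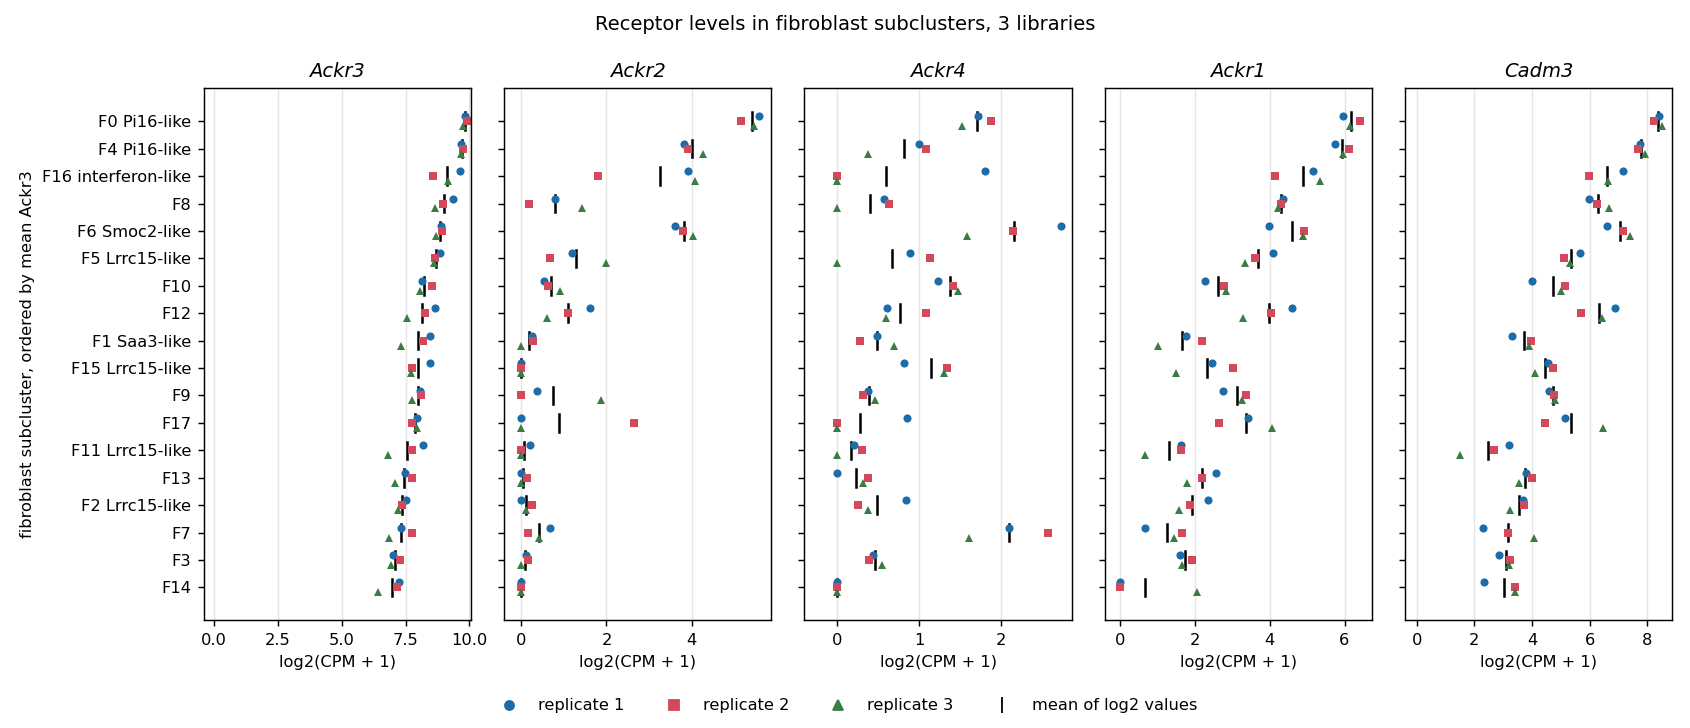
Levels of Ackr3, Ackr2, Ackr4, Ackr1 and Cadm3, as log2(CPM + 1), in 18 fibroblast subclusters ordered by mean Ackr3; the 3 symbols in a row are the 3 libraries and the vertical bar is the mean of their log2 values. F0 and F4 are at the top for Ackr3, Ackr2, Ackr1 and Cadm3, and Ackr4 is low throughout and highest in F6, F7 and F0.

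Ackr4, which scavenges the homeostatic chemokines Ccl19, Ccl21 and Ccl25, was sparse. Tenocyte-like cells had 12.5, 27.3 and 20.5 CPM (20.1 ± 7.39, SD, n = 3), from 86 UMIs in 214 cells. Fibroblast-like cells had 0.970, 1.00 and 0.687 CPM and blood endothelial-like cells, with 10 UMIs, 0.939 ± 0.650 CPM. The tenocyte libraries lay above those of every other class, while fibroblast-like and blood endothelial-like libraries overlapped (log2 difference -0.19 ± 0.62, adjusted p = 0.816 in edgeR). Tenocyte-like cells were compared with fibroblast-like cells after the levels had been seen, and differed by 4.42 ± 0.44 on the log2 scale (adjusted p = 1.49e-07), where 6.18% of genes were called higher and 14.3% either way.

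Ackr4 lies within Acad11, a mitochondrial enzyme gene on the opposite strand, and how the counts used strand is not given in the sources used here. Acad11 did not differ between these classes by the test (0.63 ± 0.29, adjusted p = 0.127 in edgeR). With 3000 UMIs per cell 4.70% ± 2.96 of tenocyte-like cells held an Ackr4 UMI (18.3% unthinned), against 0.426% ± 0.0190 of fibroblast-like cells. Of the 41 tenocyte-like cells with Ackr4, 32 also held Ackr3, against 88 of the 173 without it. Cells were not thinned for these counts, and the part of depth in them was not tested.

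Lymphatic endothelial-like cells held no Ackr4 UMI, which allows up to 0.588 CPM, and fibroblast-like cells were at least 1.65-fold higher. That call (adjusted p = 0.0188 in edgeR, 21.6% of genes called lower) was lost in DESeq2 (adjusted p = 0.0987), without replicate 1 (0.0554) and without replicate 2 (0.105). Mural-like cells held none either, and fibroblast-like cells were at least 1.55-fold higher (adjusted p = 0.0388). This call too was lost in DESeq2 (0.128), without each replicate in turn (0.069 to 0.171) and with at most 10% mitochondrial UMIs (0.0523). Among fibroblasts the highest levels were 3.68 ± 1.82 CPM in F6, 3.43 ± 1.46 CPM in F7, whose best list was that of tenocytes, and 2.27 ± 0.402 CPM in F0, and these 3 overlapped. Pi16-like fibroblasts exceeded the others by 1.03 ± 0.25 (adjusted p = 9.96e-03), a difference that fell under the size threshold without a count filter (0.99), without TMM scaling (0.88) and without replicate 2 (0.92).

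Gpr182, an endothelial receptor reported to bind Cxcl10, Cxcl12 and Cxcl13, was found almost only in endothelial cells. Lymphatic endothelial-like cells had 81.0, 52.8 and 60.5 CPM (64.8 ± 14.6, SD, n = 3) and blood endothelial-like cells 24.1, 21.8 and 32.02 CPM (26.0 ± 5.36), without overlap. The log2 difference between them was 1.38 ± 0.17 (SE, adjusted p = 1.79e-04 in edgeR). Mural-like cells held 6 UMIs and fibroblast-like cells 15, which is 0.0545 ± 0.0197 CPM in 10207 cells. Against fibroblast-like cells the log2 difference was 10.19 ± 0.24 for lymphatic (adjusted p = 2.31e-16) and 8.80 ± 0.30 for blood endothelial-like cells (adjusted p = 2.28e-08). Fibroblast-like cells were below mural-like cells (-4.24 ± 0.99, adjusted p = 2.57e-03; 11% of genes called lower), on those 6 UMIs, while the 9 blood endothelial markers summed to 335 to 415 CPM in mural-like cells. The part of endothelial RNA in the mural value was not tested.

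Among the named blood endothelial-like subclusters Gpr182 was highest in the venular-like E2 and E7, as Ackr1 was. E2 had 61.4, 63.2 and 64.7 CPM and E7 had 63.7, 46.6 and 70.9 CPM, which overlapped the lymphatic subcluster E1 at 59.6, 48.4 and 59.9 CPM. The unnamed E0 and E6, where Ackr1 was high, had less Gpr182 than E2 in every library, with 24.98 ± 15.3 and 19.6 ± 19.7 CPM from 7 and 3 UMIs. The unnamed E11, where Ackr1 was high too, went the other way. It had 12 Gpr182 UMIs, or 107.6 raw CPM, beside 60.8 raw CPM in E2. E4 had 13.01 ± 7.42 CPM and E3 had 5.28 ± 3.02 CPM. E9 had no UMI, which allows up to 4.69 raw CPM and leaves it at least 6.4-fold below the other named blood endothelial-like cells. Venular-like cells exceeded the other named blood endothelial-like cells by 3.30 ± 0.25 on the log2 scale (adjusted p = 1.10e-05 in edgeR, 52.8 ± 5.81 against 4.89 ± 2.00 CPM). In E2 and E7, without thinning, 115 of 196 cells with Ackr1 also held Gpr182 (58.7%), as did 8 of the 16 without Ackr1 (50%). The mean over blood endothelial-like cells joined E2 and E7, near the lymphatic level, with lower subclusters such as E4 and E3 and with arterial-like cells at 0. It also took in the unnamed cells.

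**Figure D5:**
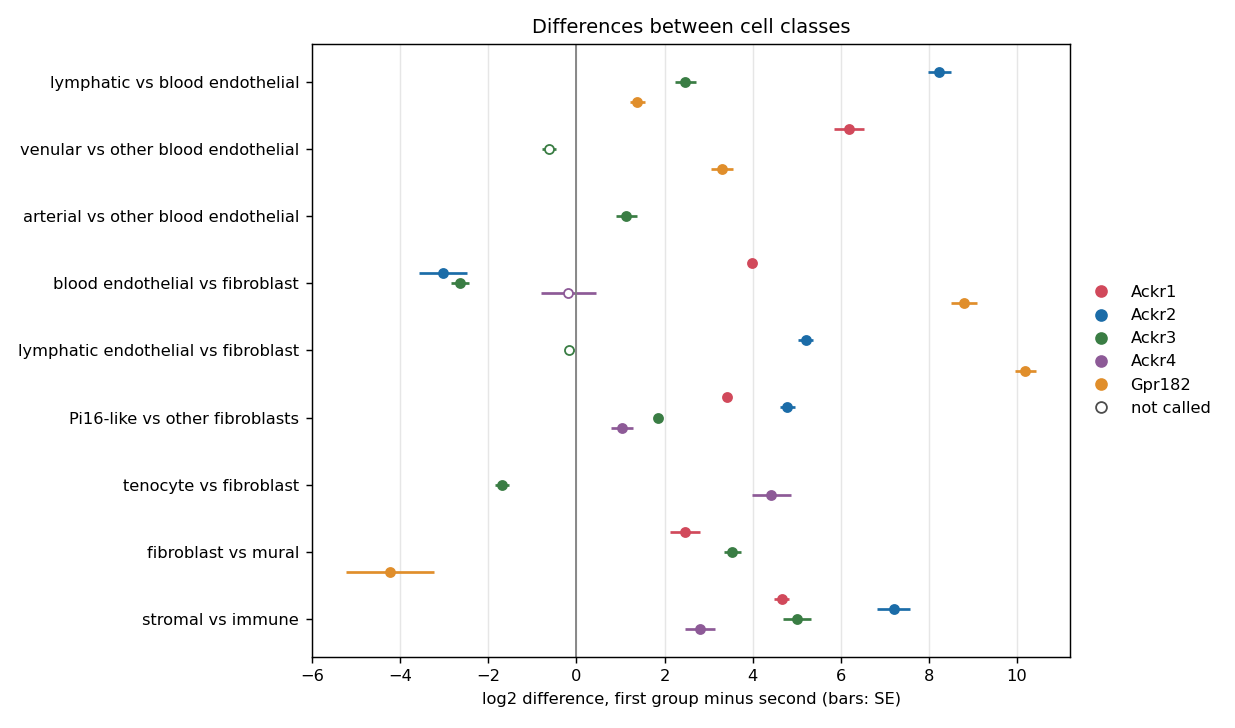
Log2 difference of each receptor in 9 comparisons, the first group named minus the second, with bars of 1 SE; open symbols were not called, and values with 3 or fewer UMIs on a side are left out. Gpr182 lies farthest right in both comparisons of endothelial-like with fibroblast-like cells, Ackr2 in that of lymphatic with blood endothelial-like cells, and Ackr3 lies near 0 between lymphatic endothelial-like and fibroblast-like cells.

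Lymphatic endothelial-like cells thus carried several of the receptors together. Of 233 cells, 185 held Ackr2, and of these 118 also held Gpr182 and 163 Ackr3. Of the 48 cells without Ackr2, 17 held Gpr182 and 20 held Ackr3. Cells were not thinned for these counts, so depth enters them. In 112 cells (48.1%) 3 of the 5 receptors were seen. There were 2 main subclusters, E8 with 63 cells, led by Ccl21a, Lyve1, Lcn2 and Mmrn1, and E1 with 160 cells, led by Reln, Foxp2 and Sema3d. Ackr2 was at 302, 166 and 234 CPM in E8 and 234, 151 and 142 CPM in E1, Ackr3 at 404 ± 141 and 283 ± 52.7 CPM, and Gpr182 at 119, 77.1 and 88.4 CPM in E8 and 55.9 ± 6.57 CPM in E1. The subclusters were compared after these values had been seen and edgeR called 0 of the 3 receptors tested, against 2.94% of all genes (0.815% higher, 2.12% lower). All 3 had an unadjusted p under 0.05, and DESeq2 called none (adjusted p between 0.0801 and 0.217). Each of the 3 was higher in E8 in 3 of 3 libraries, with log2 differences of 0.39 ± 0.15 (adjusted p = 0.0785 in edgeR), 0.50 ± 0.15 (0.0314) and 0.77 ± 0.18 (0.0104), all under the size threshold. Median depth differed as well, at 29333 UMIs per cell in E8 and 12214 in E1. The part of depth was not tested.

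Pi16-like fibroblasts carried another combination, which F6 and F16 shared in part. All 4 receptors tested there (Ackr1, Ackr2, Ackr3 and Ackr4) were called higher than in the other fibroblasts, with the doubt about Cadm3 for Ackr1 (3.42 ± 0.10, beside 3.40 ± 0.05 for Cadm3) and the weak call for Ackr4. Of all genes, 6.47% were called higher in that comparison and 19.1% in either direction. By subcluster, all 4 were called higher in F0 and 3 in F4, where Ackr4 was not called (0.60 ± 0.54, adjusted p = 0.448 in edgeR). The Smoc2-like F6 and the interferon-like F16 also had 3 called higher, all but Ackr3 in F6 and all but Ackr4 in F16. Without thinning, all 601 Pi16-like cells with Ackr2 also held Ackr3, as did 1119 of the 1141 without it. Over the 18 subclusters Ackr1 was called higher in F0, F4, F6, F8, F12 and F16. It was called lower in F1, F2, F3, F7, F11 and F13, and these are the 12 called for Cadm3. Over all genes 6.1% of such tests were called higher and 3.74% lower. The 6 lower calls were lost without replicate 3. That replicate held the only Ackr1 UMI of F14, and the part of this UMI was not tested. The F12 call fell under the size threshold without replicate 1 (0.76) and without F14 and F17 (0.97), and the F13 call was also lost without replicate 2 (-0.91).

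Classes with too few cells for a test had Ackr3 as well. Satellite-like cells, the stem cells of muscle (53 cells), had 172, 255 and 105 raw CPM of Ackr3 in the 3 libraries and no UMI of the other 4 receptors, which allows up to 4.66 raw CPM. Perineurial-like cells, the sheath of nerves (18 cells), had 40 Ackr3 UMIs, or 130 raw CPM, and 42 Schwann-like cells had none, which allows up to 5.49 raw CPM.

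The ligands of these receptors came from several classes. Ccl21a, a ligand of Ackr4, was at 9550, 9537 and 11740 CPM in lymphatic endothelial-like cells and at 47.4 ± 28.2 CPM in mural-like cells, the next class. Ccl19 was highest in mural-like cells, at 165 ± 28.9 CPM. Adm, a ligand of Ackr3, was highest in fibroblast-like cells, as Ackr3 was in the mean, at 31.0 ± 9.10 CPM. Cxcl12, bound by Ackr3 and Gpr182, was at 498 ± 94.8 CPM in blood endothelial-like and 476 ± 108 CPM in fibroblast-like cells. Ccl2 and Ccl7, inflammatory ligands of Ackr1 and Ackr2 that draw monocytes, were highest in the 61 mast- and basophil-like cells (1496 ± 581 and 1017 ± 262 CPM) and next in fibroblast-like cells (359 ± 122 and 343 ± 80.6 CPM). Cxcl2, an Ackr1 ligand that draws neutrophils, was at 32390 ± 4471 CPM in neutrophil-like cells.

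Between lymphatic and blood endothelial-like cells, where 10.1% of all genes were called higher and 11.2% lower, the list of Ackr4 ligands had 1 of 2 tested members called higher (Ccl21a, 12.003 ± 0.28) and the inflammatory CC list 2 of 2, Ccl2 by 1.95 ± 0.28 and Ccl7 by 1.10 ± 0.38. The Gpr182 list had 2 of 2 called lower, Cxcl12 by -4.95 ± 0.14 and Cxcl10, an interferon-induced chemokine, by -7.31 ± 0.30. Both signalling receptors tested were lower, Cxcr4, the signalling receptor for Cxcl12, by -4.43 ± 0.31 and Cx3cr1 by -1.18 ± 0.24. Only 2 of the 18 listed signalling receptors and 2 of the 11 inflammatory CC ligands passed the count filter here. A gene could pass it through the side where it was higher, so these counts describe the genes named and not their lists. 

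Within blood endothelial-like cells the ligands split. Venular-like cells, with more Ackr1 and Gpr182, had more Cxcl10 (3.93 ± 0.27, 219 ± 99.4 against 14.2 ± 17.1 CPM) and more Cxcl1 (1.03 ± 0.17), and less Cxcl12 (-2.33 ± 0.19, 211 ± 109 against 1000 ± 273 CPM), Adm (-2.73 ± 0.36) and Cxcr4 (-2.67 ± 0.35). Calcrl, a part of the receptor for adrenomedullin, was higher (1.21 ± 0.09), while no listed Ramp gene, the other part, was called.

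Among fibroblasts, Pi16-like cells had less Cxcl12 (-1.87 ± 0.05, 145 ± 30.1 against 533 ± 125 CPM) and less Cxcl5 (-5.34 ± 0.17) than the others, and more of the eosinophil chemokine Ccl11 (1.31 ± 0.05) and the B-cell chemokine Cxcl13 (1.75 ± 0.17). By list, 1 of 9 inflammatory CC ligands was higher and 1 lower, 1 of 5 ELR CXC ligands was lower, and 2 of 4 Ackr4 ligands (Ccl19 and Ccl20) were lower, beside 6.47% of all genes higher and 12.7% lower. The counts of the inflammatory CC and ELR CXC lists are near those shares. Ramp2 (1.94 ± 0.06) and Calcrl (1.13 ± 0.05), which together form an adrenomedullin receptor, were higher.

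Tenocyte-like cells, the class with the most Ackr4, were lower than fibroblast-like cells in several ligands. They were lower in 5 of 9 tested inflammatory CC ligands, among them Ccl11 (-6.49 ± 0.29) and Ccl8 (-5.04 ± 0.27), in 3 of 5 ELR CXC ligands and in 2 of 4 Ackr4 ligands, Ccl19 (-1.15 ± 0.20) and Ccl20, beside 8.16% of all genes called lower. Pf4, a platelet and macrophage chemokine, was the exception (1.89 ± 0.41, 14.8 ± 13.9 against 3.42 ± 1.17 CPM).

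The genes whose levels ran most like a receptor were found by Pearson's r of log2(CPM + 1) over the class means, as a description over 11 classes that share libraries. They were Ptgs1 for Ackr1 (r = 0.916), Hmcn1 for Ackr3 (0.985, with Adm the third at 0.954), Cnr1 for Ackr4 (0.982) and Cldn5, a tight junction gene of endothelium, for Gpr182 (0.997). Over the 18 fibroblast subclusters the nearest were Cadm3 for Ackr1 (0.981), Gpr1, an atypical receptor for chemerin, for Ackr2 (0.957) and Tmem100 for Ackr3 (0.955). Over 10 endothelial subclusters they were Apcdd1 for Ackr1 (0.983, with Cxcl10 the fifth at 0.959), Hoxd10 for Ackr2 (0.999), Aph1b for Ackr3 (0.958) and Ctnnal1 for Gpr182 (0.969).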

How the data were processed

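Single-cell RNA was measured in 3 libraries of 1 group. The deposited values are UMI counts per gene and barcode, made by the authors with Cell Ranger (6.1.2 per the submitters' processing notes, 7.0.0 per the file headers). Genome build, annotation and the use of introns and strand were not given in the sources used here.

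Cells with at least 500 UMIs, 200 genes and at most 20% mitochondrial UMIs were kept, and per library the highest Scrublet doublet scores were removed at 0.8% per 1000 barcodes. Cells were clustered in scanpy 1.11.5 (2000 variable genes without the receptors, ligands and signalling receptors, 30 components, resolution 1.0). A cluster was named where its best of 24 marker lists scored at least 0.15 and 1.5 times the next, with 3 markers in 25% of cells. These thresholds were set after marker levels had been seen. Counts were summed per library and class (at least 10 cells a side) and tested with edgeR 4.0.16 (filterByExpr, TMM, quasi-likelihood test, library as a block), and adjusted by Benjamini-Hochberg over all genes tested. Both sums with the same number come from the same library, so the numbers pair them. In the test values a comparison has its own scaling, and so differs slightly from the levels by class. Levels of different genes were not compared. Ratios with 3 or fewer UMIs on a side have exact intervals, and a count of 0 was set to a floor of 3 UMIs.

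The receptors and the 9 gene lists (62 of 63 genes matched) were chosen with earlier results of these data known. Genes named are the receptors, up to 3 called genes with the largest difference per list and comparison, the gene with the highest level of its list in a class, and the genes with the highest Pearson's r (pseudocount 1), of which the one for Ackr2 over classes is not reported here. Genes named beyond this rule were chosen after their values were seen. Comparisons of Pi16-like, tenocyte-like and lymphatic subclusters were added after seeing the data. The models were tested on simulated data. Alternatives changed the count filter, scaling, tool, block, cell filters, doublets and clustering resolution, and left out each library.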

Additional observations from a re-analysis of the deposited data

How the results depend on the processing

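Of 681 recomputed differences of single receptors, 646 kept their direction and their side of the threshold, 31 lost the call, 1 gained it (Ackr3 in venular-like cells) and 3 turned direction. The 3 were not called: Ackr4 between blood endothelial-like and fibroblast-like cells (0.0312 without TMM scaling, and from -0.71 without replicate 2 to 0.53 without replicate 1), and Ackr3 between lymphatic endothelial-like and fibroblast-like cells (0.0844 without TMM scaling). The cause was not tested. Without the replicate block the Ackr3 difference of arterial-like cells was 1.08 (adjusted p = 0.0699 in edgeR), and no other call on a receptor between classes changed with the block.

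Genes called rose from 800 to 1273 in the venular comparison with at most 10% mitochondrial UMIs. In the arterial comparison they went from 982 to between 572 and 1018 when 1 replicate was left out, with the lowest without replicate 1. Between E8 and E1 they went from 238 to 75 in DESeq2 and to between 110 (without replicate 2) and 433 (without replicate 3). The mean Ackr1 level in blood endothelial-like cells was 267 CPM without TMM scaling, and that of Ackr3 in fibroblast-like cells 369 CPM without doublet removal. Shares of cells with a UMI moved with depth by construction. Unthinned they were 41.3% (Ackr1), 79.6% (Ackr2), 81.9% (Ackr3 in fibroblast-like cells), 18.3% (Ackr4) and 59.1% (Gpr182), and at 1500 UMIs 25.7%, 19.5%, 33.9% and 10.6% for Ackr1, Ackr2, Ackr3 and Gpr182. The arterial comparison could not be fitted with at most 10% mitochondrial UMIs or at resolutions 0.6 and 1.5, and the fibroblast subclusters were not refitted after reclustering. Depth limits the comparisons with few UMIs on a side, such as Ackr4 in lymphatic endothelial-like and mural-like cells and Gpr182 in arterial-like cells (0 UMIs each).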

Other observations

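Other atypical receptors, which were not among the 5 genes, were also uneven. Gpr1, a chemerin receptor, was called higher in venular-like than in other named blood endothelial-like cells (log2 difference 3.61, edgeR) and in Pi16-like than in other fibroblasts (5.17). Cmklr1, the signalling chemerin receptor, and Ccrl2, which presents chemerin, were called lower in Pi16-like fibroblasts. They were also called lower in stromal-like than in immune-like cells, where 19.5% of all genes were lower. Gpr1 and the listed Pitpnm3 were called higher there, beside 29.8% of all genes. Ccrl2 was highest in neutrophil-like cells (1582 ± 192 CPM) and Cmklr1 in macrophage-like cells (106 ± 1.29 CPM). In T-like and NK-like cells, 46 and 21 in number, Ackr3 had 2 UMIs each.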
